A study of Mus musculus with 2 samples.

Results

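The genes described here build, move and fuse the vesicles of the cell. They were taken by name: coat subunits of COPI and COPII, Rab, Arf and Arl GTPases, SNAREs of the syntaxin and VAMP families, p24 cargo receptors, TRAPP subunits, sorting nexins, Vps proteins and ESCRT-III subunits, plus other genes whose symbols start with Sec and a number. The tables of the 2 libraries listed 188 such genes. A site was a listed position with at least 20 reads in replicate 2, and 376 sites in 106 of these genes, on 112 transcripts, met this minimum. Replicate 2 held 16212 sites in 3919 named genes in all.

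The material was wild-type Rx:GFP mouse retinal organoids at day 6, a stem-cell-derived model of the early eye field in which green fluorescent protein reports Rax expression. The cells had been differentiated in medium with 5% serum replacement and treated with AGN at 0.1 µM for 6 days, and the 2 libraries form 1 group (n = 2). There was no untreated, mutant or later group, so no contrast between conditions was made. Whole aggregates were used, and levels cannot be assigned to a cell type. Whether the replicates came from separate cultures is not stated, so the spread between them may be technical. With 2 libraries an exact paired permutation test cannot give a p below 0.5, and the values below are descriptions without tests.

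Membrane traffic runs in both directions between organelles. COPII coats bud vesicles from the endoplasmic reticulum and COPI coats return cargo from the Golgi, each coat being recruited by a small GTPase of the Sar or Arf family. Rab GTPases mark the identity of each compartment and recruit tethers such as HOPS and GARP, after which SNARE proteins drive fusion. Retromer and sorting nexins recycle cargo out of endosomes, and ESCRT complexes bud membrane away from the cytosol into multivesicular bodies. N6-methyladenosine (m6A) is a mark placed on adenosines of messenger RNA by a writer complex around METTL3, and is known for its part in RNA turnover.

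Each row of the tables gives a transcript position, a motif of 5 bases, a fraction modified (0 to 1) and a coverage in reads. The motifs are shown because they set the sequence context of each site, with the adenosine in capitals:
Motif 1: agAct
Motif 2: ggAca
Motif 3: ggAcc
Motif 4: ggAct
Positions are the end coordinate of each row. Against the first 50 transcribed bases of RefSeq genes (GRCm38.p6), this coordinate fell on letter 4 of the motif at 23 of the 48 early positions whose motif occurs there, and the next most frequent placement, letter 3, had 3. At those 23 positions the adenosine lies 1 base before the position given here. The count does not settle the other positions.

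The trafficking genes had 922 listed positions in 183 genes in replicate 2 and 566 in 134 genes in replicate 1, with medians of 15 and 13 reads. At 20 or more reads replicate 1 held 186 sites in 59 genes. Their median coverage was 40 reads in replicate 1 and 41 in replicate 2, and the deepest position had 144 and 316 reads. None of them appeared among the 11 and 35 rows of the minus tables. Of the retinal progenitor markers, 7 of 8 were listed in each library, at up to 111 and 261 reads. None of 5 pluripotency, 3 mesoderm or 3 endoderm markers was listed. Of 4 neuronal markers Tubb3 was listed, at up to 11 and 17 reads, and of 4 pigment epithelium markers 1 and 2 were listed, at up to 6 and 14 reads. Their part in the values below was not tested.

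The median fraction modified was 0.364 in replicate 1 and 0.357 in replicate 2, that is 0.36 ± 0.0046 (SD, n = 2). These medians are over different sets, 186 and 376 sites, so this SD is not a spread between libraries alone. Sites of all other genes had medians of 0.353 and 0.345. The quartiles of the trafficking sites in replicate 2 were 0.152 and 0.684. Of the 376 sites, 146 had a fraction of 0.5 or more, which is 38.8% (95% Wilson interval 34% to 43.8%, counting error only). Among all sites of replicate 2 the share was 37.5%, inside that interval. A fraction of 0 was listed at 12 of the sites, 3.19% against 3.23% of all sites, and a fraction of 1 at 16, 4.26% against 3.22%.

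By motif the trafficking genes had their highest fractions at GGACA (motif 2). Their median there was 0.6 over 79 sites in replicate 1 and 0.597 over 155 sites in replicate 2. GGACA sites of all other genes had medians of 0.677 and 0.667. The difference, members minus others, was -0.0774 in replicate 1 and -0.0702 in replicate 2. The quartiles of the member GGACA sites in replicate 2 were 0.333 and 0.86. The difference was not tested. It was negative under each alternative run, but its size varied: with a minimum of 50 reads in replicate 2 it was -0.0147, and with 20 reads in both replicates it was -0.122. At the other 3 motifs the medians of members were 0.263 (AGACT, 58 sites), 0.229 (GGACC, 79 sites) and 0.233 (GGACT, 84 sites) in replicate 2, within 0.0034 of the other genes. In replicate 1 the differences there were -0.0524 at motif 1 (29 sites), 0.0176 at motif 3 (32 sites) and 0.00845 at motif 4 (46 sites). Of the 4 motifs, a difference over 0.05 in both libraries was seen at motif 2. GGACA made up 41.2% of the trafficking sites and 35.5% of the rest. Over all motifs the median differed from the rest by 0.0123 in replicate 2.

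**Figure D1:**
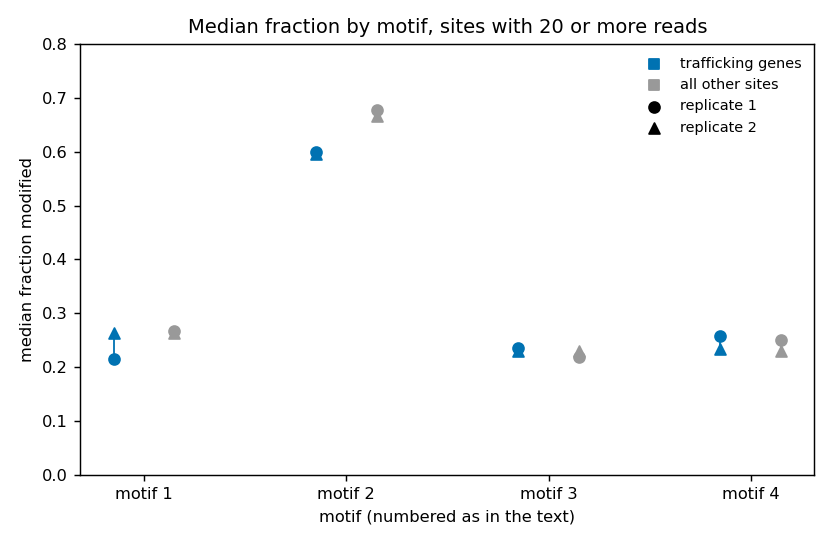
Median fraction modified (y axis) at sites with 20 or more reads, by motif (x axis; 1 is AGACT, 2 is GGACA, 3 is GGACC and 4 is GGACT), for trafficking genes (blue) and all other sites (grey). Circles are replicate 1 and triangles replicate 2, joined by a line; at motif 2 the trafficking genes lie at 0.6 and 0.597, below the other sites at 0.677 and 0.667.

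The genes were divided into 12 classes by role, and the class medians in replicate 2 ran from 0.154 to 0.484. SNAREs were highest with 0.484 over 25 sites, followed by COPII and ER exit site genes with 0.457 over 35 sites. This order depends on the depth: at the sites with 20 reads in both libraries the SNARE median was 0.348 in replicate 1 and 0.206 in replicate 2 over 4 sites, the lowest class in replicate 2, and the Rab median was 0.401 and 0.386 over 32 sites. The tethers of the HOPS, CORVET and GARP type had the lowest median, 0.154 over 7 sites in 3 genes. Yet 42.9% of their sites had a fraction of 0.5 or more. Their median was 0.741 at 3 GGACA sites and 0.118 at the other motifs. Across the classes GGACA made up 33.3% to 52.4% of the sites. The Rab GTPases had the most sites, 65 in 20 genes, and a median of 0.261. Within each class the fractions spread over most of the scale. In 11 of the 12 classes, the HOPS class being the exception, the range from lowest to highest site was at least 0.858. GGACA sites lay above the other motifs in each class, for example 0.855 against 0.215 in the COPII class and 0.521 against 0.17 in the Rab class. The orders of classes rest on few sites each, and neighbouring medians such as those of COPII (0.457) and the name-only class (0.441) cannot be told apart at this depth.

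**Figure D2:**
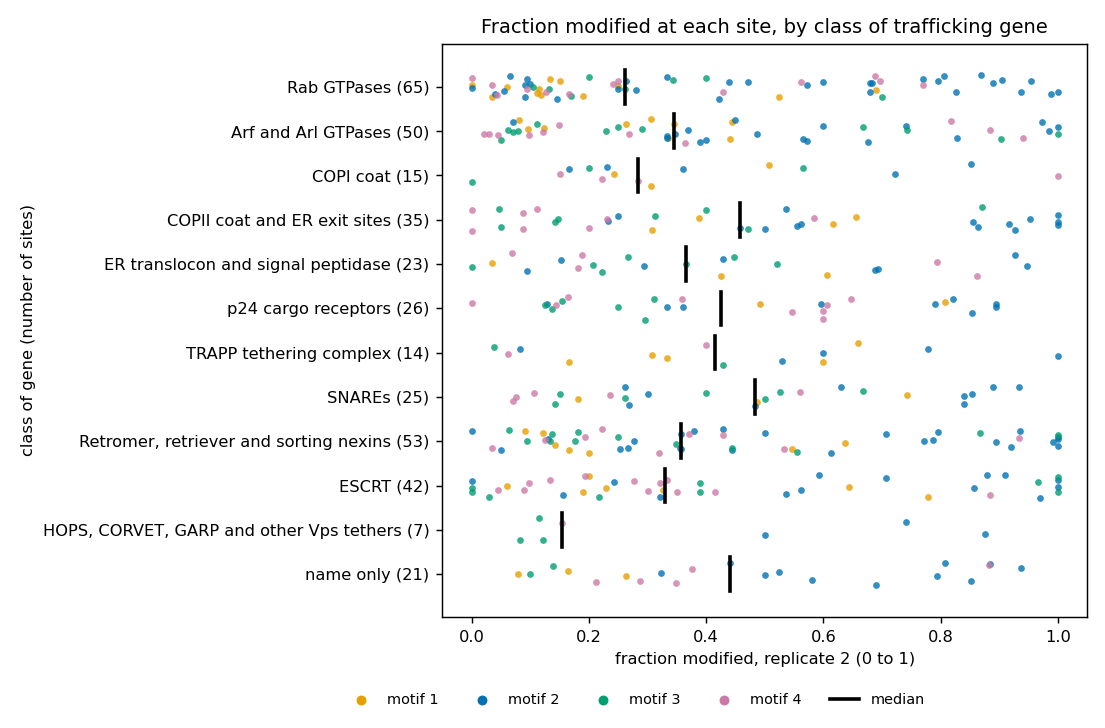
Fraction modified in replicate 2 (x axis) of each of the 376 sites, by class of trafficking gene (y axis, number of sites in brackets); colours give the motif (1 AGACT, 2 GGACA, 3 GGACC, 4 GGACT), vertical jitter has no meaning and black bars are medians. Class medians run from 0.154 in the HOPS, CORVET and GARP class to 0.484 in the SNAREs, and each class spans high and low sites.

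Among the Rab GTPases, sites of 1 motif on 1 transcript lay at opposite ends of the scale. Rab8a, which acts in post-Golgi traffic and in cilium formation, had 10 sites, of which 9 were covered by 20 reads in both libraries. Its GGACA at position 787 had fractions of 0.972 over 46 reads and 0.955 over 65 reads. Its GGACA at position 870, 83 bases further on, had 0.0323 and 0.0408 over the same numbers of reads. The other GGACA sites of Rab8a, at positions 1158 and 1196, had 0.778 and 0.769, and 0.739 and 0.683. These sites kept their order in both libraries and their values did not overlap.

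Rab5c, a GTPase of early endosomes, had 2 GGACA sites. Position 454 had 0.0455 over 30 reads in replicate 1 and 0.0656 over 74 in replicate 2, and position 1198 had 0.975 over 40 and 0.989 over 90 reads. Rab2a, which acts between the endoplasmic reticulum and the Golgi, showed the reverse order along its transcript. Its position 832 had 0.905 over 57 and 0.938 over 134 reads, and position 1437 had 0.05 over 52 and 0.0549 over 117 reads. Rab1b, which governs transport from the endoplasmic reticulum to the Golgi, had 4 sites. Its GGACA at position 454 had 0.152 over 46 and 0.146 over 111 reads, and the one at position 1102 had 0.904 over 61 and 0.868 over 139 reads.

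The recycling-endosome paralogs Rab11a and Rab11b differed in what was listed. Rab11b had 4 sites, none below 0.56 in either library, with a gene mean of 0.807 ± 0.0238 (SD, n = 2). Its GGACA at position 1588 had 0.982 over 61 reads and 1 over 116 reads. Rab11a had a single site, a GGACA at position 333, with 0.114 over 62 and 0.0909 over 108 reads. In the early-endosome family, Rab5a had a GGACA at position 467 with 0.833 over 22 and 0.679 over 48 reads, and no GGACA site was listed in Rab5b at this depth. At other motifs the 3 sites of Rab5a lay between 0.06 and 0.241 in replicate 2 and the 3 of Rab5b between 0.0435 and 0.118. The late-endosome GTPase Rab7 had 1 site, with 0.276 over 48 and 0.263 over 126 reads. These paralogs were singled out after their values were seen, and sequence alignment of the sites was not possible here.

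Rab35, a regulator of endocytic recycling, also had 10 sites, with 20 to 47 reads in replicate 2 and 13 to 23 in replicate 1. They ranged from 0.0357 to 0.905 in replicate 2. At this depth single sites were loose: its GGACC at position 169 had 0.714 over 13 reads and 0.2 over 20. The widest such gap among the trafficking genes was in Rab4a, a GTPase of rapid recycling, whose position 983 had 0.857 over 18 reads in replicate 1 and 0.0909 over 22 in replicate 2. The coverage of Rab4a was nearly equal in both libraries, in contrast to most genes.

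**Figure D3:**
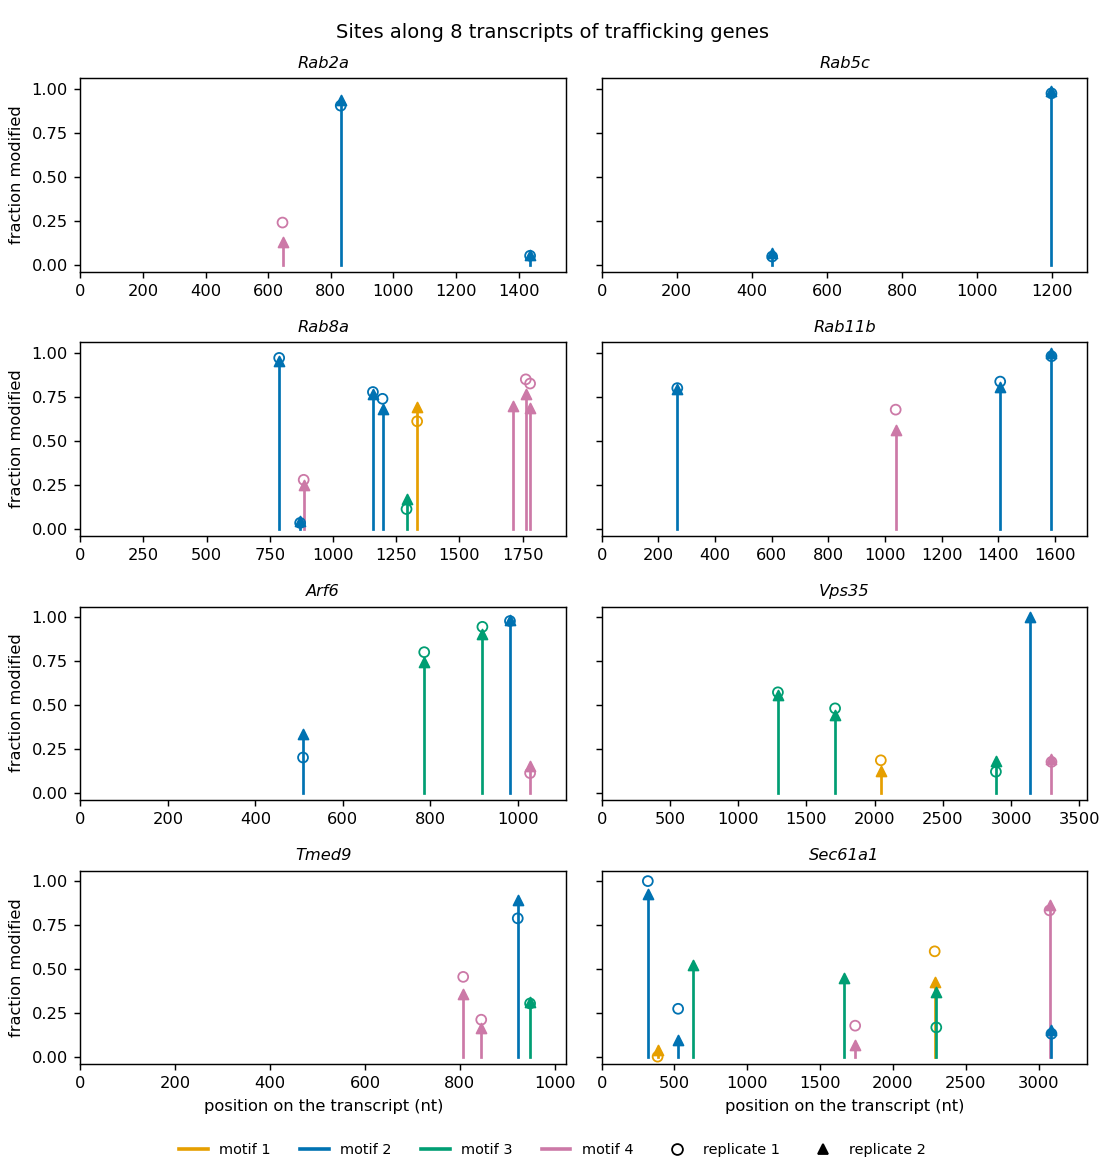
Fraction modified (y axis) at each site along 8 transcripts (x axis, position in nt from the start of the transcript); open circles are replicate 1, triangles with stems replicate 2, and colours the motifs (1 AGACT, 2 GGACA, 3 GGACC, 4 GGACT). In Rab2a, Rab5c and Rab8a sites of motif 2 lie both above 0.9 and below 0.1 in both libraries; a triangle without a circle, as at 3139 of Vps35, marks a site not listed in replicate 1.

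The Arf and Arl GTPases had 50 sites in 12 genes with a median of 0.346. Arf1, which recruits the COPI coat to the Golgi, was the deepest, with 9 sites on 2 transcripts. On its main transcript the GGACA at position 1093 had 0.584 over 144 and 0.487 over 316 reads. Arf6, which acts at the plasma membrane, had 5 sites and a gene mean of 0.614 ± 0.0109 (SD, n = 2). A GGACC at position 919 of Arf6 had 0.944 over 46 and 0.902 over 64 reads, and a GGACA at position 982 had 0.977 and 0.984 over 46 and 67 reads. The next site, a GGACT at position 1028, had 0.111 over 47 and 0.149 over 67 reads. High sites of Arf6 were therefore not limited to GGACA.

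Arl4c, a plasma-membrane member of the family, had the most sites of any trafficking gene, 12, and most of them were low. In replicate 2, 8 of them had a fraction of at most 0.306, over 20 to 56 reads. Its 4 sites with 20 reads in both had a mean of 0.141 ± 0.0105 (SD, n = 2), and none of these was GGACA. Its 2 highest sites had 18 reads in replicate 1 and are not in that mean. They were a GGACA at position 1076 (0.8 and 0.741) and a GGACT at position 1291 (0.75 and 0.818). Over all 12 sites the mean in replicate 2 was 0.246. Arl3, which releases lipid-modified proteins inside cilia, had a GGACA at position 724 with 0.897 over 56 and 0.827 over 117 reads and an AGACT at position 135 with 0.122 over 55 and 0.0968 over 100 reads. Arl1, which recruits golgin tethers to the trans-Golgi, had a GGACA at position 704 with 0.943 and 0.973 over 35 and 118 reads. Its other site, an AGACT at position 1408, had 0.0312 and 0.0808 over 39 and 126 reads. Arl6, a GTPase that recruits the BBSome of cilia, had a GGACC at position 664 listed at 1 in both libraries, over 22 and 32 reads. Its GGACT at position 964 had 0 and 0.121 over 25 and 41 reads, and its GGACA at position 527 had 0.6 and 0.389.

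The COPI coat had 15 sites in 6 genes with a median of 0.283. Copz1 (position 1583, AGACT) had 0.513 over 80 and 0.507 over 131 reads, and Cope (position 811, GGACC) had 0.119 over 56 and 0.2 over 96 reads. Copa had 4 sites on 2 transcripts, at 11 to 16 reads in replicate 1, and its GGACT at position 1226 was listed at 1 in both libraries over 12 and 21 reads. Copg1 had 4 sites from 0.15 to 0.306 in replicate 2, and 3 of them were not listed in replicate 1. Copb1 had 4 sites from 0.222 to 0.565. Copb2, another COPI subunit, had 3 positions in replicate 1 with 34 to 44 reads and fractions of 0.926, 0.214 and 0.161. No row of Copb2 was among those of replicate 2 analysed here, so it has no site by the rule.

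The COPII and ER exit site genes had 35 sites in 7 genes, yet 6 of these sites reached 20 reads in both libraries. Sec13, a subunit of the outer cage, had a GGACA at position 123 with 0.139 over 49 and 0.233 over 84 reads and a GGACA at position 982 with 0.755 over 60 and 0.855 over 112 reads. Sec23b, part of the inner coat, had 5 sites. Its GGACA at position 85 had 1 over 23 and 0.926 over 28 reads, while its AGACT at position 1823 went from 0.652 over 36 to 0.387 over 51 reads. The cargo adaptors Sec24b and Sec24c had 7 sites each, with 5 to 13 reads in replicate 1 where listed. In replicate 2 they spanned 0.0476 to 1 and 0.111 to 0.864. Sec31a, the other cage subunit, had 6 sites from 0.313 to 1 in replicate 2, of which 1 was listed in replicate 1.

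The translocon and signal peptidase had 23 sites in 5 genes. Sec61a1, the pore subunit of the translocon, had 10 sites, and its site means covered 0.0179 to 0.963, the widest range of any trafficking transcript with at least 3 sites at 20 reads in both. A GGACT at position 3076 had 0.833 over 36 and 0.861 over 76 reads, and a GGACA 13 bases further on, at position 3089, had 0.13 and 0.152 over the same reads. Here GGACA was the low site of the pair. Sec62, which assists post-translational import, had 5 sites from 0.182 to 0.692 in replicate 2. Sec11a, a catalytic subunit of signal peptidase, had 3. Position 1069, a GGACT, was the highest with 0.696 over 65 and 0.793 over 99 reads.

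The p24 receptors, which sort cargo at the coats, had 26 sites in 7 genes and a median of 0.426. Tmed9 had 4 sites within 141 bases, all with 52 reads in replicate 1 and 101 to 103 in replicate 2. Their fractions were 0.455 and 0.358 at position 807, 0.211 and 0.164 at 845, 0.788 and 0.894 at 922, and 0.303 and 0.31 at 948. The order of these 4 sites was the same in both libraries. Tmed2 had 5 sites, with 0.913 over 30 and 0.894 over 103 reads at position 726. Tmed10 had 6 sites on 2 transcripts, described with the other transcript pairs below.

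The TRAPP complex, a tether for Golgi-bound vesicles, had 14 sites in 7 genes, none with 20 reads in both libraries. Trappc3 had a GGACA at position 306 with 0.923 over 16 and 1 over 35 reads, and a GGACT at position 963 with 0 over 19 and 0.0625 over 42. Trappc5 had a GGACA at position 623 with 0.786 over 19 and 0.778 over 32 reads and a GGACC at position 817 with 0.0667 and 0.0385. Trappc1 had 3 AGACT sites on 2 transcripts in replicate 2, with 0.6, 0.167 and 0.66, and no row in replicate 1. The HOPS, CORVET and GARP class was as shallow. Vps16, a core subunit of HOPS and CORVET, had 4 sites from 0.115 to 0.875 over 27 to 34 reads in replicate 2. Vps52 of GARP had 2 low sites, 0.0833 and 0.154, and Vps41 of HOPS had 1, with 0.875 over 11 and 0.741 over 33 reads.

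The SNAREs had 25 sites in 7 genes. Stx6, a syntaxin of the trans-Golgi and endosomes, had 9 sites with 26 to 35 reads in replicate 2 and at most 18 in replicate 1. Of its 5 GGACA sites 4 lay between 0.63 and 0.889 in replicate 2, and position 1182 had 0.269. Stx12, an endosomal syntaxin, had 4 sites, among them an AGACT at position 1045 with 0.733 over 17 and 0.742 over 43 reads. Sec22a, put in this class by its symbol alone, had 4 sites from 0.0714 to 0.933 over 20 to 23 reads. Vamp3, a SNARE of recycling vesicles, had a GGACT at position 637 with 0.08 over 36 and 0.0755 over 70 reads. Its GGACA at position 1526 had 0.539 over 44 and 0.484 over 86 reads. Vamp4, a trans-Golgi SNARE, had the largest replicate difference among trafficking sites with 20 reads in both, 0.6 over 21 and 0.261 over 30 reads at position 708.

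Retromer, retriever and sorting nexin genes had 53 sites in 14 genes. Vps35, the scaffold of retromer, had 6 sites. Its 5 sites listed in both libraries had a mean of 0.303 ± 0.00478 (SD, n = 2), with 0.571 and 0.556 at the highest, position 1291. Its only GGACA, at position 3139, was listed at 1 over 167 reads in replicate 2 and was not listed in replicate 1, although positions on either side of it had 56 and 70 reads there. Vps29, a retromer subunit, had 10 sites on 2 transcripts. Vps26c, the retriever counterpart of Vps26, had 5 sites from 0 to 0.533 in replicate 2 over 23 to 27 reads. Snx5, a sorting nexin that works with retromer cargo, had a GGACA at position 1219 with 1 over 47 and 0.991 over 116 reads and another at position 1630 with 0.526 and 0.5 over 40 and 90 reads. Snx6 had a GGACT at position 827 with 0.027 and 0.0341 over 44 and 99 reads. Its GGACA sites at positions 746 and 155 had 0.806 and 0.795, and 0.5 and 0.356.

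The ESCRT genes had 42 sites in 11 genes and a median of 0.33. Chmp1a, an ESCRT-III subunit, had 6 sites. Its GGACA at position 1305 had 0.964 over 32 and 0.879 over 71 reads, and its GGACT at position 971 had 0 over 32 and 0.0444 over 65 reads. Chmp2b had a GGACC at position 1256 listed at 1 in both libraries, over 21 and 40 reads. Chmp7, which recruits ESCRT-III to the nuclear envelope, had 6 sites, of which 3 had fractions of at least 0.94 in both libraries, at 17 to 21 reads in replicate 1 and 33 to 37 in replicate 2. The ATPases that disassemble ESCRT-III were both listed. Vps4b had 6 sites from 0 to 0.857 in replicate 2, and Vps4a had 3. In Vps4a a GGACA at position 1745 had 0.0526 and 0, and an AGACT at position 1754, 9 bases further on, had 0.765 and 0.643.

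The name-only class holds genes taken by their symbols whose products are not coats or tethers themselves. Vps72, a subunit of chromatin remodellers that handle histone H2A.Z, had 4 sites, with 0.889 over 47 and 0.884 over 97 reads at position 536. Arl2bp, a binding partner of Arl2, had 5 sites, with 0.911 over 59 and 0.937 over 85 reads at position 402 and 0.0938 over 75 and 0.0789 over 138 reads at position 1932. Arl6ip4, which has been linked to splicing, had 4 sites. Leaving this class out changed the overall median from 0.357 to 0.356.

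Spread along a transcript was then set beside the spread between libraries. On 26 transcripts with at least 3 sites at 20 reads in both, the range of site means had a median of 0.68. The largest replicate difference on the same transcripts had a median of 0.136, and the range was the larger of these on each of the 26. Among all genes this held for 97.1% of 781 such transcripts, so it is not a feature of these genes. The narrowest range was 0.209 on the main Arf1 transcript. For GGACA alone, 17 transcripts had at least 2 such sites. On 8 of them the highest and lowest differed by more than 0.5 in both libraries, which is 47.1% (95% Wilson interval 26.2% to 69%), and among all genes the share was 29.9% of 468 transcripts, inside that interval. The 8 were those of Rab8a, Rab5c, Sec61a1, Rab2a, Arf6, Rab1b, Sec13 and Tmed2. Sites of 1 transcript share reads, and transcripts with more sites have more room for a wide range.

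Both ends of the scale were occupied, in shares near those of all genes. Of 152 sites with 20 reads in both libraries, 15 had a fraction of at least 0.9 in both, 9.87% against 9.37% of all 5221 such sites. Of these 15, 11 were GGACA, and the other 4 were in Arf2, Arf6, Arl6 and Chmp2b. A fraction of at most 0.1 in both was found at 13 sites, 8.55% against 10.1%. Of these 13, 4 were GGACA, in Rab2a, Rab5c, Rab8a and Vps4a. The motifs at either end were not counted for all genes, so these motif counts cannot be called particular to the trafficking genes.

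Among the 46 sites with 50 reads in both libraries, the highest mean was 0.991 ± 0.0131 at position 1588 of Rab11b (chromosome 17, 33961458 to 33979504, as deposited, build not settled). The next were Arl2bp position 402 with 0.924 ± 0.018 and Rab2a position 832 with 0.921 ± 0.0231 (chromosome 4, 8535644 to 8607778). Vps29 position 432 had 0.887 ± 0.0677, Rab1b position 1102 had 0.886 ± 0.025, and Arl3 position 724 had 0.862 ± 0.0496. Arl6ip1 position 1285, a GGACT, had 0.856 ± 0.0362, and Tmed9 position 922 had 0.841 ± 0.075. All of the 8 highest apart from Arl6ip1 were GGACA.

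The lowest mean at that depth was 0.0525 ± 0.00346 at position 1437 of Rab2a, the transcript that also held the third highest. Arl2bp position 1932 followed with 0.0864 ± 0.0105, Rab11a position 333 with 0.102 ± 0.0161 (chromosome 9, 64622581 to 64645040), and Arl3 position 135 with 0.109 ± 0.0178. Vps72 position 997 had 0.143 ± 0.00502, Vps35 position 2888 had 0.15 ± 0.0439, Cope position 811 had 0.16 ± 0.0573 and Rab2a position 646 had 0.183 ± 0.0798. Each of these means is over both libraries (SD, n = 2). Rab2a, Arl2bp and Arl3 each appeared at both ends.

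Of the 376 sites, 294 were listed in replicate 1. At least 20 reads were reached there by 152, which is 40.4% (95% Wilson interval 35.6% to 45.5%). Among all 16212 sites 5221 reached them, a share below that interval. This difference in depth was not tested. Over these 152 sites Pearson's r was 0.949 and Spearman's rho 0.937, as a description, since the sites share libraries and transcripts. The median difference, replicate 2 minus replicate 1, was -0.0115, with 62 sites higher in replicate 2, 88 lower and 2 equal. Over all 5221 sites at that depth the median difference was -0.0043, with 2390 higher, 2733 lower and 98 equal. A difference over 0.2 occurred at 8 sites, 5.26% (95% Wilson interval 2.69% to 10%), against 5.94% of all sites, inside the interval. These 8 were in Vamp4, Snx12, Chmp2b, Sec23b, Arl6ip4, Chmp6, Chmp1a and Arl6, with 20 to 36 reads in replicate 1.

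The root mean square difference was 0.188 at 37 sites with 5 to 9 reads in replicate 1, 0.107 at 106 sites with 20 to 49 reads as the lower coverage, and 0.0764 at 46 sites with 50 or more. Sampling of all covering reads would alone give 0.158, 0.0896 and 0.0647, which are lower limits because the number of reads behind each fraction is not known. At 50 or more reads 0 of 46 sites differed by over 0.2, with an upper Wilson bound of 7.71%, against 1.09% of all 1827 sites at that depth. The median absolute difference of the trafficking sites hardly moved, from 0.0536 at 20 to 49 reads to 0.053 at 50 or more, where it was 0.0344 for all sites. Their root mean square difference of 0.0764 at 50 or more reads also lay above the 0.0659 of all sites. The median signed difference there was -0.0305, with 17 sites higher in replicate 2 and 29 lower, against -0.0058 for all sites. None of these contrasts was tested. The 4 largest differences at that depth were at Vps29 position 563 (0.615 and 0.771), Rab5if position 703 (0.475 and 0.324), Arl2bp position 1829 (0.362 and 0.213) and Vps72 position 837 (0.432 and 0.288).

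**Figure D4:**
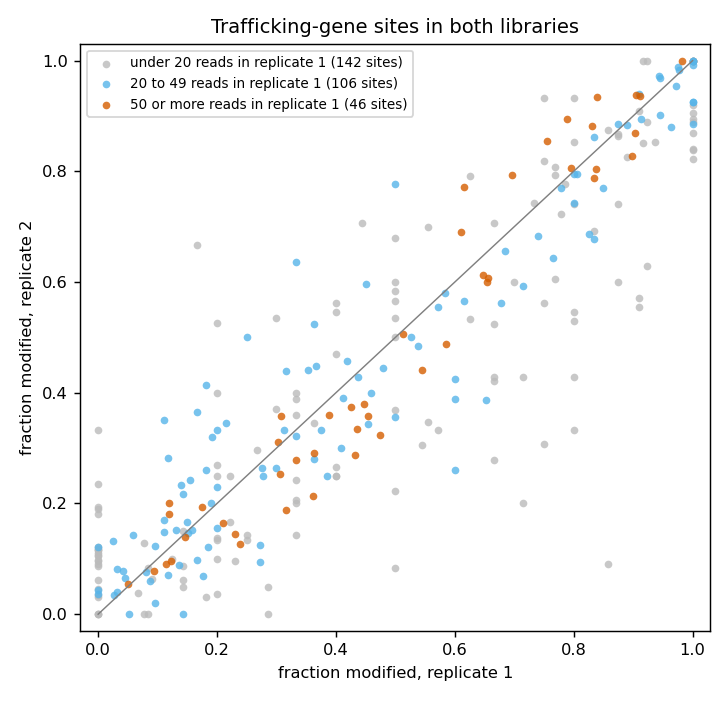
Fraction modified in replicate 1 (x axis) and replicate 2 (y axis) at the 294 trafficking sites listed in both libraries; colour gives the coverage in replicate 1 and the line marks equal values. The 46 sites with 50 or more reads in replicate 1 stay within 0.2 of the line, and the widest gaps are at sites with under 20 reads there.

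For 6 genes sites fell on more than 1 transcript. In 3 of them, Arf1, Tmed10 and Vps29, sites of 1 motif recurred at a constant shift, giving 10 pairs of positions. In replicate 2 the gap within a pair had a median of 0.0879 and reached 0.159. In replicate 1, where 7 pairs were listed, the median gap was 0.0317 and the widest was 0.221, in Tmed10 at 10 reads. On the Vps29 transcripts, shifted by 4 bases, GGACA positions 428 and 432 had 0.833 and 0.839 in replicate 1 and 0.787 and 0.934 in replicate 2. Positions 444 and 448, 16 bases on, had 0.308 and 0.447 in replicate 1 and 0.357 and 0.38 in replicate 2. The step from the high to the low GGACA thus appeared on both transcripts and in both libraries. On the Arf1 transcripts, shifted by 189 bases, GGACC positions 521 and 710 had 0.291 over 296 and 0.25 over 27 reads in replicate 2, and GGACA positions 1093 and 1282 had 0.487 and 0.565. The Tmed10 transcripts, shifted by 475 bases, had 0.6 over 99 and 0.6 over 25 reads at GGACT positions 1042 and 567, and 0.145 and 0 at positions 1020 and 545. How the authors divided reads among transcripts of a gene is not stated, so these pairs may share reads.

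**Figure D5:**
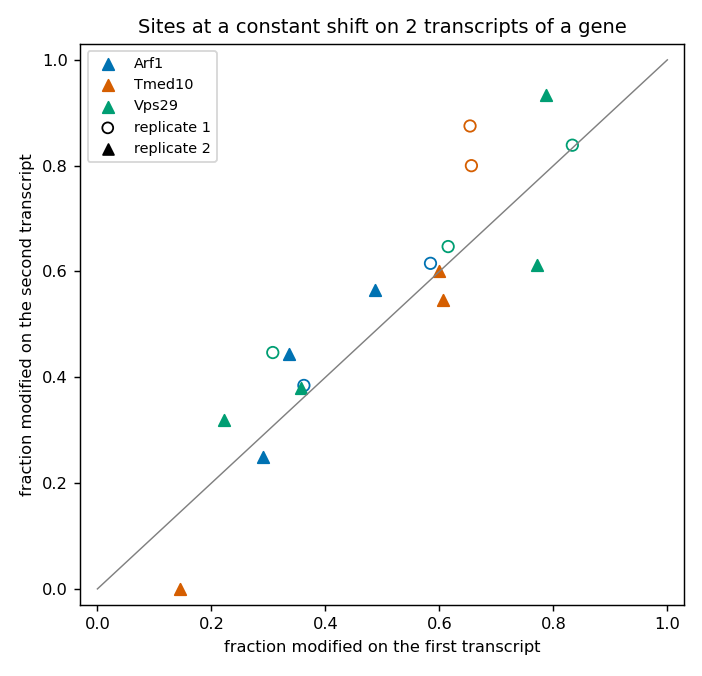
Fraction modified on the first (x axis) and second (y axis) transcript of Arf1, Tmed10 and Vps29, for the 10 pairs of positions at a constant shift; open circles are replicate 1, triangles replicate 2, and the line marks equal values. In replicate 2 no pair differs by more than 0.159.

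Neighbouring sites within 20 bases on 1 transcript formed 13 pairs in 9 genes, and in 9 pairs both sites had 20 reads in both libraries. Of these, 4 pairs were of 1 motif. In Rab8a the GGACT sites at positions 1763 and 1780 had nearly the same fraction, 0.85 and 0.826 in replicate 1 and 0.769 and 0.688 in replicate 2. In Vps29 the GGACA pair differed by 0.526 and 0.43 on 1 transcript and by 0.392 and 0.555 on the other. In Arl6ip4 the GGACA sites at positions 1144 and 1156 differed by 0.333 in replicate 1 and by 0.0806 in replicate 2, over 20 and 46 reads. Neighbours of 1 motif were thus close in Rab8a and apart in Vps29, while the gap in Arl6ip4 was not the same in the 2 libraries. Among the 5 pairs of unlike motifs the widest gaps were in Vps4a, with 0.712 and 0.643 in the 2 libraries, and at Sec61a1 positions 3076 and 3089, with 0.703 and 0.709.

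Not every position could be compared. Of the 376 sites, 82 (21.8%, 95% Wilson interval 17.9% to 26.3%) were not listed in replicate 1, against 25.2% of all sites, inside the interval. A further 142 had under 20 reads there. On transcripts where replicate 1 had covered positions on either side, 15 of 80 trafficking sites were not listed, which is 18.8% (95% Wilson interval 11.7% to 28.7%), against 13.5% of such sites in all genes, inside the interval. These 15 included Vps35 position 3139, Arl2bp position 1625 (132 reads in replicate 2), Tmed2 position 1674 (118 reads) and Rab1b position 481 (112 reads). Their fractions in replicate 2 ran from 0.111 to 1. Of the 106 genes with a site, 7 had no row in replicate 1: Arl6ip6, Copz2, Sec61a2, Trappc1, Trappc4, Vps28 and Vps36. That is 6.6% of the genes (95% Wilson interval 3.24% to 13%), against 4.41% of all 3919 genes with a site. Among genes with a site of 50 reads the share was 3 of 51, or 5.88% (2.02% to 15.9%), against 2.07% of 1739. The share of all genes lies inside the second interval too, close to its lower bound. Arl6ip6 had up to 135 reads in replicate 2 and Trappc1 up to 93, while the median gene with at least 2 sites listed in both had 2.22 times as many reads in replicate 2. Coverage of Vps4a was the exception in that group, with 22 to 23 reads in replicate 1 and 20 in replicate 2. Sites of that group were chosen by their reads in replicate 2. At sites with 20 reads in both libraries the median ratio was 1.96 for trafficking sites and 2 for all sites. The reason for these absences is not known from the tables.

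Reads were more numerous towards the end of most transcripts. On 45 transcripts with at least 4 sites the last site had more reads than the first on 39, and the ratio of last to first had a median of 1.26. Among all genes the last site had more reads on 83.3% of 1845 such transcripts, with a median ratio of 1.23. The ratio was highest in Rab35, from 20 to 47 reads. The last site had fewer reads than the first on 5 transcripts, those of Copg1, Rab8a and Arl4c and both of Vps29, with 58 and 31 reads at the ends of Copg1.

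The rule takes 263 protein-coding symbols in RefSeq (GRCm38.p6), of which 187 were listed here and 76 were not. The remaining listed name, Chmp1b2, is not among those symbols. Of the listed genes 82 had no site, 5 of them because they had rows in replicate 1 alone. The others fell short of 20 reads, and Chmp2a, Sec14l1, Sec63 and Stx5a came closest with 19, followed by Rab13, Rab3ip and Vps37b with 18 and Arl14ep, Copg2 and Rab24 with 16, the first by name of 6 genes with that coverage. Not listed were 24 of 59 Rab GTPases, among them Rab18, Rab27a and Rab27b, and 10 of 26 SNAREs. The share of all protein-coding genes that were not listed was not counted, so whether these shares are unusual is not known. A gene could be missing because it had few reads, no motif of these 4, or no row among those used here, and the tables do not separate these.

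Trafficking genes outside the naming rule were summarised in the same way. A list of 84, with clathrin, its adaptors, COG, exocyst and SNARE regulators, had 75 genes listed and 46 with a site. Their 201 sites had a median of 0.394 in replicate 2, and 38.3% had a fraction of 0.5 or more. At their 79 GGACA sites the median was 0.615. Sar1a, the GTPase that starts COPII assembly, had 14 sites there, with 0.975 over 50 and 0.977 over 105 reads at position 726 and 0.188 over 41 and 0.0769 over 92 reads at position 968, both GGACA. Sar1a was chosen after its values were seen.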

How the data were processed

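Per the labels' protocols, 1 µg of poly(A) RNA per library was sequenced as native RNA (RNA002 chemistry) for about 48 h. The submitters' processing notes name mm10. The base caller, aligner and modification caller are not given in the sources used here. The coverage is a deposited count of reads per position, with none below 5, and the fraction modified is a fraction deposited by the authors, whose number of contributing reads is not stated. Deposited gene coordinates lay within 1000 bases of the GRCm38.p6 start for 3 of 106 genes, so their build is not settled.

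Sites needed 20 reads in replicate 2 and were matched to replicate 1 on transcript version and position. Named are the 3 genes with most sites per class, the 8 highest, 8 lowest and 4 most divergent sites with 50 reads in both, neighbours of 1 motif within 20 bases, genes with several transcripts, and up to 10 genes without a site. Others are named where a count or contrast turned on them. The members, roles and lists were chosen with earlier results of these data known. Medians, counts, Wilson intervals and SDs were computed with Python 3.11.15, pandas 2.3.3, scipy 1.17.1 and statsmodels 0.14.6. The summaries were tested on simulated data. No test between groups was possible. Alternatives were other coverage minimums, 1 transcript per gene, no name-only genes and replicate 1 alone.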

Additional observations from a re-analysis of the deposited data

How the results depend on the processing

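With no coverage minimum there were 922 sites in 183 genes, a median fraction of 0.333, a gap between GGACA and the other 3 motifs of 0.371 (0.353 with 20 reads), a difference of 0 from all other sites (0.0123 with 20 reads) and of -0.0458 from other GGACA sites (-0.0702 with 20 reads). With 50 reads in replicate 2 there were 143 sites in 51 genes, and those 3 differences were 0.381, 0.0102 and -0.0147. With 20 reads in both there were 152 sites in 55 genes, a median of 0.363, and 0.264, 0.0015 and -0.122. With 1 transcript per gene the median was 0.349, the difference from all other sites 0.00515 and from other GGACA sites -0.0801. Without the name-only genes the difference from all other sites was 0.0108. Replicate 1 alone, without replicate 2, gave 186 sites in 59 genes, a median of 0.364, and 0.361, 0.0107 and -0.0774. Counts move because each minimum keeps fewer or more rows; for the other values the cause was not tested. The spread used for medians is that of 2 libraries, whose sets of sites differ, and is small. The share of sites at 0.5 or more stayed within its interval, and the median replicate difference ran from -0.0115 to -0.0058, under the alternatives run for them; it was -0.0305 at the 46 sites with 50 reads in both libraries. The comparison with other GGACA sites was added after seeing the data. For a site's mean, leaving out either library cannot move it by more than 1 SD, so this says nothing about stability. No paired analysis was possible because the samples form 1 group. At 5 to 9 reads in replicate 1 the libraries differed by 0.188 in root mean square.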
